A study of Mus musculus with 12 samples.

Results

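Fatty acid oxidation and ketogenesis were followed through 40 named genes in the livers of mice with severe acute pancreatitis (SAP). The 40 genes were taken by symbol, all 40 were found among the 55487 rows of the expression table, and all 40 were among the 11335 genes abundant enough to test. They comprised 3 genes of fatty acid uptake and binding, 5 acyl-CoA synthetases, 4 genes of the carnitine shuttle, 7 acyl-CoA dehydrogenases and 5 genes of the later steps of the mitochondrial spiral. A further 3 auxiliary enzymes, 3 genes of the electron transfer flavoprotein, 8 peroxisomal genes and 2 genes of ketone body metabolism completed the set.

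The SAP group was 6 livers of Balb/c mice given caerulein, a cholecystokinin analogue that overstimulates the exocrine pancreas, and the control group was 6 livers of Balb/c mice labelled only as controls, with no vehicle named. The series' design text speaks of 2 mouse models, but the labels give 1 strain and 1 agent and do not say which model a sample belongs to. All 12 samples were labelled wild type and 6 weeks old, and total RNA from frozen liver was sequenced. The labels give neither the dose of caerulein nor the time of sampling, and nothing in them says whether any samples came from the same animal, so the p-values measure only the spread between these samples. The unit is not stated and was taken from the library totals as TPM, transcript shares corrected for gene length and scaled to a fixed total. The totals alone do not show the length correction, on which comparisons of level between genes rest, while comparisons of 1 gene between groups do not need it. Such values set each gene's level relative to all other RNA in the same liver, so fewer hepatocytes and less of an RNA per hepatocyte cannot be told apart.

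The liver takes up fatty acids, binds them in the cytosol and joins them to coenzyme A. Long-chain acyl groups then cross into mitochondria as carnitine esters, and a repeating spiral of dehydrogenation, hydration, a second dehydrogenation and thiolysis shortens them to acetyl-CoA. Very-long-chain and dicarboxylic acids are shortened in peroxisomes first, and in fasting the liver turns acetyl-CoA into ketone bodies for other organs. The nuclear receptor PPAR-alpha is a main activator of these genes in mouse liver.

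Most of the genes were lower in SAP livers: 31 of the 40 fell, 1 rose and 8 did not pass the test (limma on log2(TPM + 1), Benjamini-Hochberg adjusted p below 0.05 over all genes tested). Among all genes tested, 25.0% were called lower, 19.5% higher and 44.5% in either direction. For 27 of the 40 every SAP liver lay below every control liver, against 15.1% of all genes, and no member had its groups apart in the other direction, against 10.5% of all genes. A fall of at least 1 on the log2 scale was called for 7 members, Fabp1, Acsl1, Acsl5, Acsm5, Ehhadh, Acaa1b and Abcd3, against 5.43% of all genes. No member rose that much, against 2.55% of all genes. The median log2 change was -0.54 over the 40 members and -0.03 over all genes tested.

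Summed over the 40 genes, the level was 10359 ± 1624 TPM in SAP livers and 21058 ± 1972 TPM in control livers (SD, n = 6 each). The sums did not overlap, at 7872 to 12824 TPM in SAP and 19020 to 23936 TPM in control. Fabp1 alone made up 41.7% of the sum in SAP and 54.9% in control. Without Fabp1 the sum was 6035 ± 734 TPM in SAP and 9493 ± 332 TPM in control, still without overlap.

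**Figure D1:**
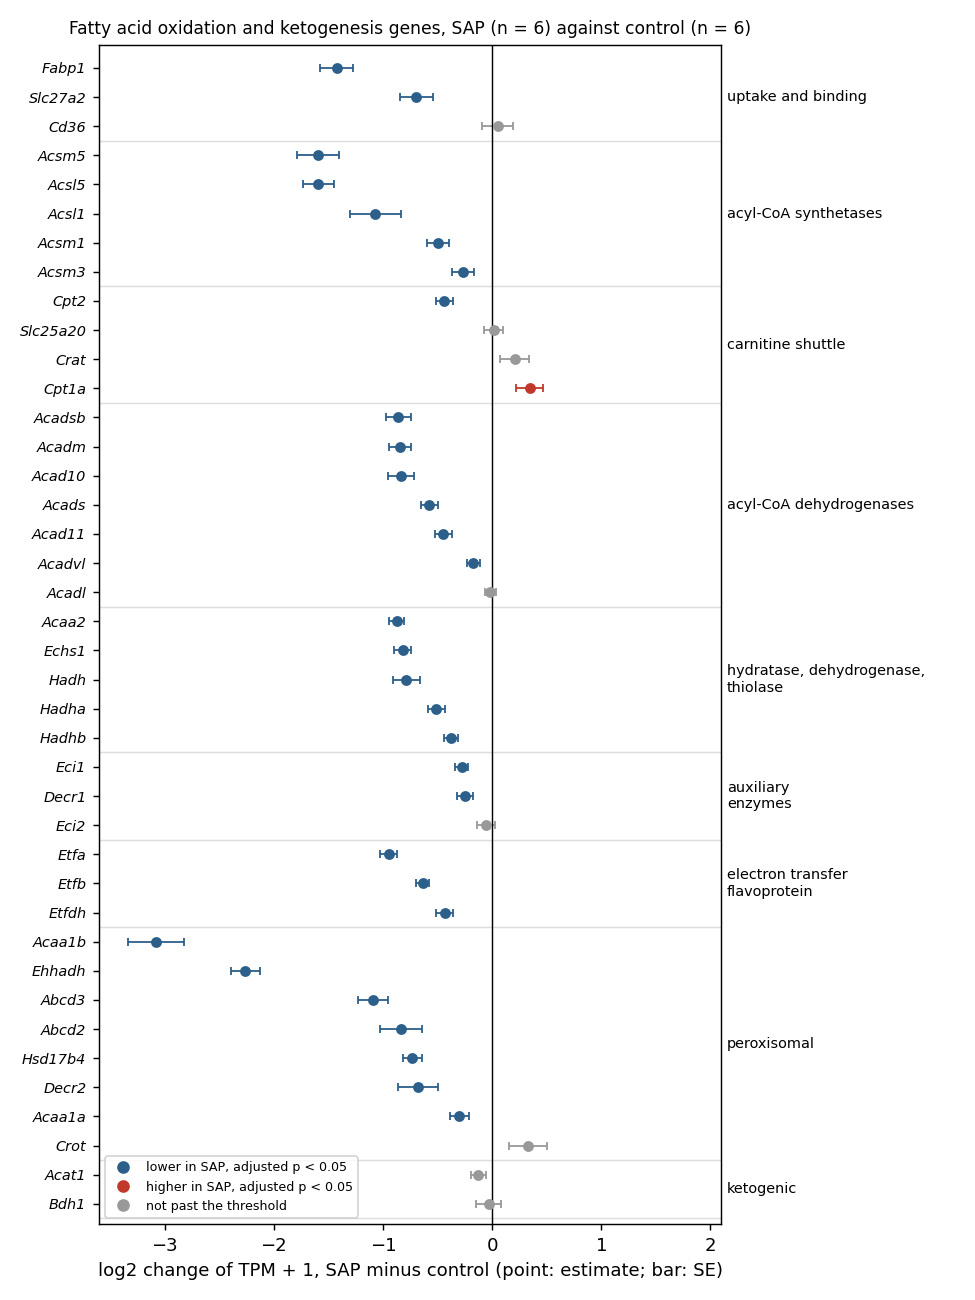
Log2 change (SAP minus control, on log2(TPM + 1)) of each of the 40 genes, ordered by role, with bars for the standard error. Acaa1b, Ehhadh, Acsm5 and Acsl5 lie furthest to the left, Cpt1a is the 1 gene called higher, and the ketogenic genes Bdh1 and Acat1 lie near 0 (above 0 under quantile normalization and when libraries are rescaled outside the acute-phase genes).

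Because TPM are relative, a gene can fall when other RNAs rise. A list of acute-phase plasma protein genes, which the liver induces in systemic inflammation, took 22.5% to 36.8% of all TPM in SAP livers and 3.54% to 4.17% in control livers. When each library was rescaled to its TPM outside that list, the median log2 change of all genes tested moved to 0.32, and calls over all genes became 10.7% lower and 55.4% higher. On that scale 18 of the 40 members were lower and 11 higher, and the members' median was -0.13, which is 0.45 below the median of all genes and leaves 32 of the 40 below it. Quantile normalization gave 21 lower and 8 higher members, against 22.9% and 26.0% of all genes, and TMM-like scaling 28 lower and 1 higher, against 24.1% and 24.6%. The same 18 genes were lower under all 25 alternative settings, namely Fabp1, Acsl1, Acsl5, Acsm5, Acads, Acadm, Acadsb, Acad10, Echs1, Hadh, Acaa2, Etfa, Etfb, Ehhadh, Hsd17b4, Acaa1b, Abcd2 and Abcd3. How many of all genes tested were lower under every setting was not counted, so the 18 cannot be called unusual.

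The SAP libraries differed among themselves. SAP 14 was the lowest SAP library for 32 of the 40 members and SAP 12 the highest for 34, and they also had the highest and the lowest acute-phase share of the SAP group. These counts depended on the scale: they were 22 and 26 outside the acute-phase list and 16 and 21 under TMM-like scaling, where SAP 15 was lowest for 11 members and SAP 10 for 10. The median member stood 0.80 below the control mean on the log2 scale in SAP 14 and 0.27 below it in SAP 12. Xist was at 4.59 to 17.1 TPM in SAP 11, SAP 13, SAP 14, SAP 15 and control 5 and at 49.1 to 60.7 TPM in the other 7 libraries, and Malat1, another RNA that stays in the nucleus, split the same way, at 2.76 to 8.19 TPM against 26.2 to 40.1 TPM. With only the 7 libraries high in Xist, 2 of them SAP, 26 members were lower and 3 higher, against 16.1% and 18.0% of all genes. With the split as a term in the fit over all 12 libraries, 27 members were lower and 3 higher, against 19.4% and 20.5% of all genes, and their median log2 change was -0.46.

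**Figure D2:**
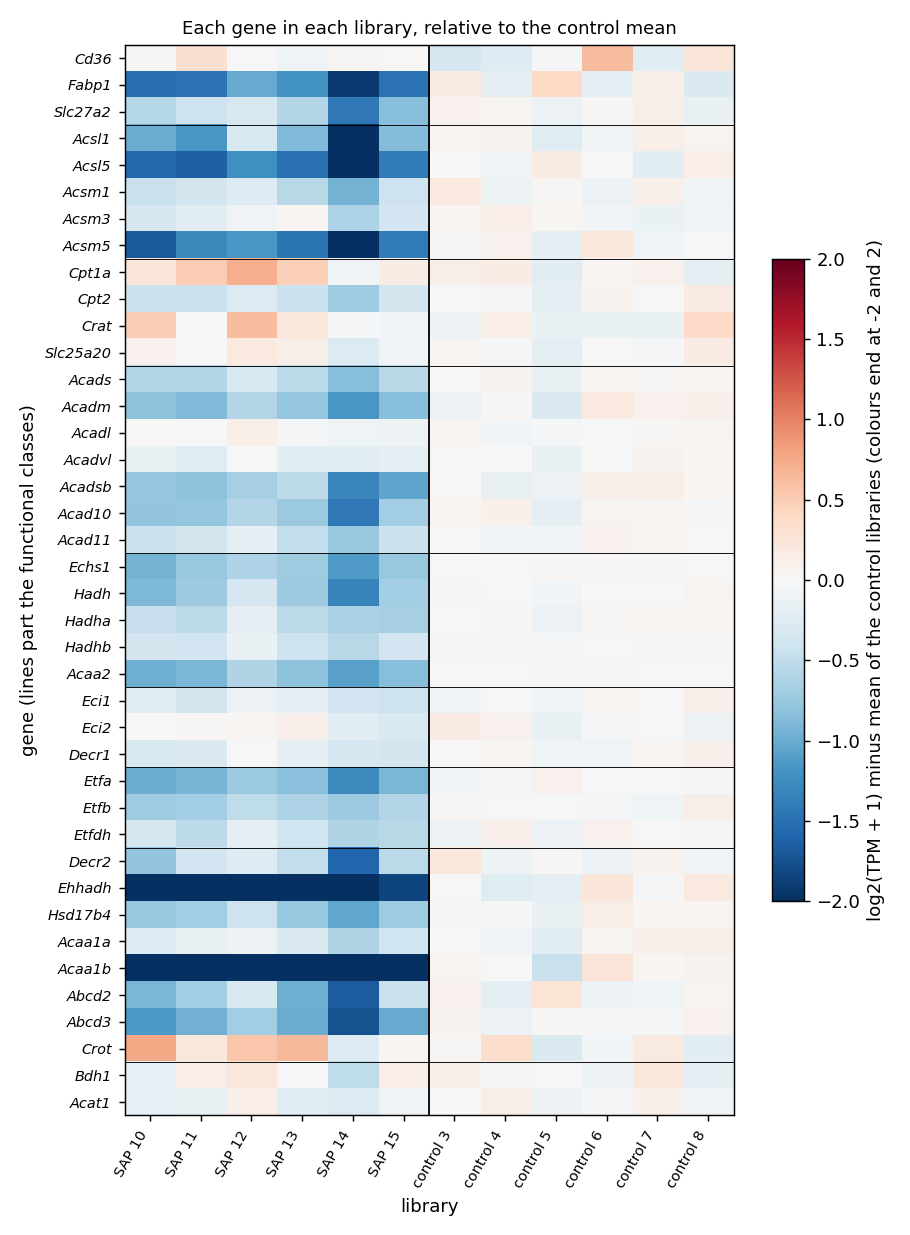
Log2(TPM + 1) of each of the 40 genes in each library minus the mean of the 6 control livers, with SAP libraries on the left and control libraries on the right, in colours that end at -2 and 2. SAP 14 is the darkest column, with a median of -0.80, and SAP 12 is the palest of the SAP columns, with a median of -0.27.

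The defining hepatocyte markers were present in every library. Their sum was 54602 to 61817 TPM in SAP livers and 84570 to 96459 TPM in control livers, and of the 10 markers 6 fell, 2 rose (Apoa1 and Fga) and 2 did not pass the test. Markers of infiltrating cells were mixed. The 10 neutrophil markers summed to 36.5 to 111 TPM in SAP and 4.73 to 19.6 TPM in control, mostly S100a8 and S100a9, with 3 of the 4 tested called higher. Of the untested ones, Camp and Ltf had lower means in SAP, and Cxcr2, Ly6g, Elane and Mpo higher ones. The 9 monocyte and macrophage markers summed to 85.2 to 141 TPM in SAP and 65.3 to 97.7 TPM in control, with overlap. Of 7 tested, 4 were called higher, 1 (Lyz2) lower and 2 did not pass. Retnlg and Itgam, counted as higher, entered the test only through SAP livers, so their calls are only a description. The part of infiltrating cells in the fall of the members was not tested. Kupffer cell markers summed to 200.0 to 446 TPM in SAP and 226 to 336 TPM in control (1 higher and 3 lower of 8), and markers of sinusoidal endothelium to 142 to 204 TPM in SAP and 124 to 173 TPM in control (4 higher and 0 lower of 8). The 6 adipocyte markers summed to 25.7 to 43.5 TPM in SAP and 12.6 to 17.3 TPM in control, of which only Fabp4 was abundant enough to test and was called higher, while Adipoq was listed at 0 in 5 of the 6 livers of each group. The 10 pancreatic acinar markers summed to 0.63 to 1.31 TPM in SAP and 0.69 to 17.3 TPM in control, and the 8 heart and skeletal muscle markers to 0.05 to 1.07 TPM in SAP and 0.14 to 0.87 TPM in control, and none of these was abundant enough to test. The highest acinar sum was that of control 8, where Ctrb1 was at 4.54 TPM, against at most 1.03 TPM in any other library.

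The upstream sequence of 5 genes is shown because the results turn on them: the peroxisomal pair Acaa1b and Acaa1a, which changed unequally, Ehhadh and Fabp1, which fell strongly, and Cpt1a, which was called higher. Each is the 250 bases before the annotated start (RefSeq, GRCm38.p6), written along the gene's own strand, with capitals marking matches to the motifs searched.
Acaa1b: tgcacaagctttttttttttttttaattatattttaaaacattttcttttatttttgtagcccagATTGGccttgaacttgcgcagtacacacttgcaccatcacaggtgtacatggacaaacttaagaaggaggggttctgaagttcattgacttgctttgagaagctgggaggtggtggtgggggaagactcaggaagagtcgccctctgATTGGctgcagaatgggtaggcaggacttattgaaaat
Acaa1a: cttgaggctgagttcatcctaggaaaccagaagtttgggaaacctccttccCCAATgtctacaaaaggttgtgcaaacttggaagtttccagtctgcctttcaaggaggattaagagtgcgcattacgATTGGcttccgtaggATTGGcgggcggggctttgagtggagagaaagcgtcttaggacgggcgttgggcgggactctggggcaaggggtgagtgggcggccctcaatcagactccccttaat
Ehhadh: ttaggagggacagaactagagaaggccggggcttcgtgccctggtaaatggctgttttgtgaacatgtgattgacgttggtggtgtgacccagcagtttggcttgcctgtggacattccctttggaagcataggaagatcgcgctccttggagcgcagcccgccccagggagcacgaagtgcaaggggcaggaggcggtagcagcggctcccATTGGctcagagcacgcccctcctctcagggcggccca
Fabp1: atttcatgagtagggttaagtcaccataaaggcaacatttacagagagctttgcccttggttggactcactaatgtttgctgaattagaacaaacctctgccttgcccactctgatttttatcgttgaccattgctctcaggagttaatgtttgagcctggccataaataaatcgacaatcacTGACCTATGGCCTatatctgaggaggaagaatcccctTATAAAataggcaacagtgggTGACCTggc
Cpt1a: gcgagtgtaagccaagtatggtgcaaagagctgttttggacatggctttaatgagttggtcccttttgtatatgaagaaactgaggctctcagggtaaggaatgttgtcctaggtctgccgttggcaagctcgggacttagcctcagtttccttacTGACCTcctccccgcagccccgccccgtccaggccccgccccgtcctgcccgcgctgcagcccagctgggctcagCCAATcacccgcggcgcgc
They lie at chr9:119157094-119157343 (minus strand), chr9:119341044-119341293 (plus), chr16:21787835-21788084 (minus), chr6:71199629-71199878 (plus) and chr19:3323051-3323300 (plus) in that order. The motifs were the direct repeat that PPAR-alpha binds with its partner RXR (AGGNCA repeated with 1 base between), the single element AGGTCA, the CCAAT box and the TATAAA box, on both strands. RefSeq starts were matched for 34 members, giving 37 windows. Starts on 1 chromosome were left out for the members, with no such step for all windows, so the shares below compare unlike sets. The direct repeat was found in 1 of the 37 (2.7%) and in 0.338% of all 32851 windows of this length, AGGTCA in 8 (21.6%) and 14% of all, CCAAT in 17 (45.9%) and 33.8% of all, and TATAAA in 1 (2.7%) and 12.4% of all. Fabp1 held the direct repeat, 67 to 55 bases before its start and overlapping a single element, and a TATAAA box 30 to 25 bases before it. Cpt1a held AGGTCA 94 to 89 bases and CCAAT 19 to 15 bases before its start, and the windows of Acaa1b, Acaa1a and Ehhadh held CCAAT boxes only. A match is a description of the letters and not a binding site.

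Of the uptake and binding genes, 2 of 3 fell. Fabp1, the liver fatty acid-binding protein and the most abundant member in both groups, was at 3034, 4101 and 5686 TPM (lowest, median and highest) in SAP livers, against 9364, 11133 and 15101 TPM in control livers. The groups lay far apart, with a control mean 2.67 times the SAP mean (log2 change -1.42 ± 0.15 SE, adjusted p = 8.37e-06). Slc27a2, a very-long-chain acyl-CoA synthetase and fatty acid transport protein, was at 223, 400.1 and 479 TPM in SAP and 542, 613 and 646 TPM in control, again with no overlap (log2 change -0.69 ± 0.15, adjusted p = 0.00228), but outside the acute-phase list its change was -0.28 and its call was lost (adjusted p = 0.0686). Cd36, the plasma membrane fatty acid translocase, gave 33.6, 36.3 and 45.2 TPM in SAP and 28.1, 32.8 and 55.3 TPM in control and did not pass the test (log2 change 0.05 ± 0.15, adjusted p = 0.810), though it was called higher outside the acute-phase list (log2 change 0.45, adjusted p = 0.0158).

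All 5 acyl-CoA synthetases fell as deposited, though Acsm3 lost its call under each rescaling and had a log2 change of 0.13 outside the acute-phase list. Its call also did not hold without SAP 10, SAP 11, SAP 14, SAP 15 or any 1 control other than control 7. Together they summed to 410.3 ± 92.7 TPM in SAP and 799.3 ± 21.7 TPM in control (SD, n = 6 each). Acsl5, a long-chain synthetase, was at 50.4, 85.5 and 104 TPM in SAP livers, against 213, 248 and 273 TPM in control livers (log2 change -1.59 ± 0.14, adjusted p = 1.63e-06). Acsl1, the main long-chain synthetase of liver, was at 46.9, 116 and 181 TPM in SAP and 188, 231 and 241 TPM in control (log2 change -1.07 ± 0.23, adjusted p = 0.00211). Its SAP values spread widely, from SAP 14 at the bottom to SAP 12 just below the lowest control. Among the medium-chain synthetases the falls were unequal. Acsm5 averaged 22.2 ± 6.63 TPM in SAP and 66.4 ± 6.43 TPM in control, Acsm1 157 ± 23.8 and 221 ± 19.6 TPM, and Acsm3 34.5 ± 5.73 and 41.4 ± 2.81 TPM, with overlap for Acsm3 alone. Their log2 changes were -1.60 ± 0.19, -0.50 ± 0.10 and -0.27 ± 0.10 (adjusted p = 2.15e-05, 0.00157 and 0.0431). The call of Acsm1 was lost under quantile normalization (log2 change -0.12) and outside the acute-phase list (-0.085).

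The carnitine shuttle did not move as a block, and its sum was 289 ± 40.5 TPM in SAP and 285 ± 18.5 TPM in control. Cpt1a, which makes long-chain acylcarnitine at the outer mitochondrial membrane and is the controlled step of entry, was at 88.1, 119 and 153 TPM in SAP livers and 79.1, 95.9 and 101 TPM in control livers. Its groups overlapped, and the rise was small (log2 change 0.34 ± 0.12, adjusted p = 0.0346). The call did not hold without SAP 11, SAP 12, SAP 13, control 5, control 6 or control 8, nor with no filter on low genes, where the adjusted p reached 0.0769, its highest over all settings, while the log2 change stayed between 0.27 and 0.75 under all settings. Cpt1a was called higher under TMM-like scaling (log2 change 0.40), quantile normalization (0.65) and outside the acute-phase list (0.75). The call also held with the Xist split as a term (0.46).

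Cpt2, which turns the carnitine ester back into acyl-CoA at the inner membrane, fell, at 64.0, 78.0 and 87.3 TPM in SAP and 92.0, 105 and 117 TPM in control (log2 change -0.44 ± 0.08, adjusted p = 0.000543), a call lost only on the scale outside the acute-phase list. The ratio of Cpt1a to Cpt2 within a library, which does not depend on the scaling of that library, was 1.24, 1.52 and 1.75 in SAP and 0.690, 0.890 and 0.986 in control. Every SAP liver thus held more Cpt1a than Cpt2 on the TPM scale, and every control liver less. Slc25a20, the carnitine-acylcarnitine carrier, averaged 67.7 ± 7.69 TPM in SAP and 66.9 ± 5.39 TPM in control, and Crat, which handles short-chain acyl groups, 24.5 ± 5.22 and 21.0 ± 3.54 TPM. Neither passed the test (log2 changes 0.01 ± 0.08 and 0.21 ± 0.13, adjusted p = 0.914 and 0.235). Crat was called higher outside the acute-phase list (log2 change 0.60), with the Xist split as a term (0.40) and in the libraries high in Xist alone (0.52), and Slc25a20 under quantile normalization (0.25) and outside the list (0.42).

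**Figure D3:**
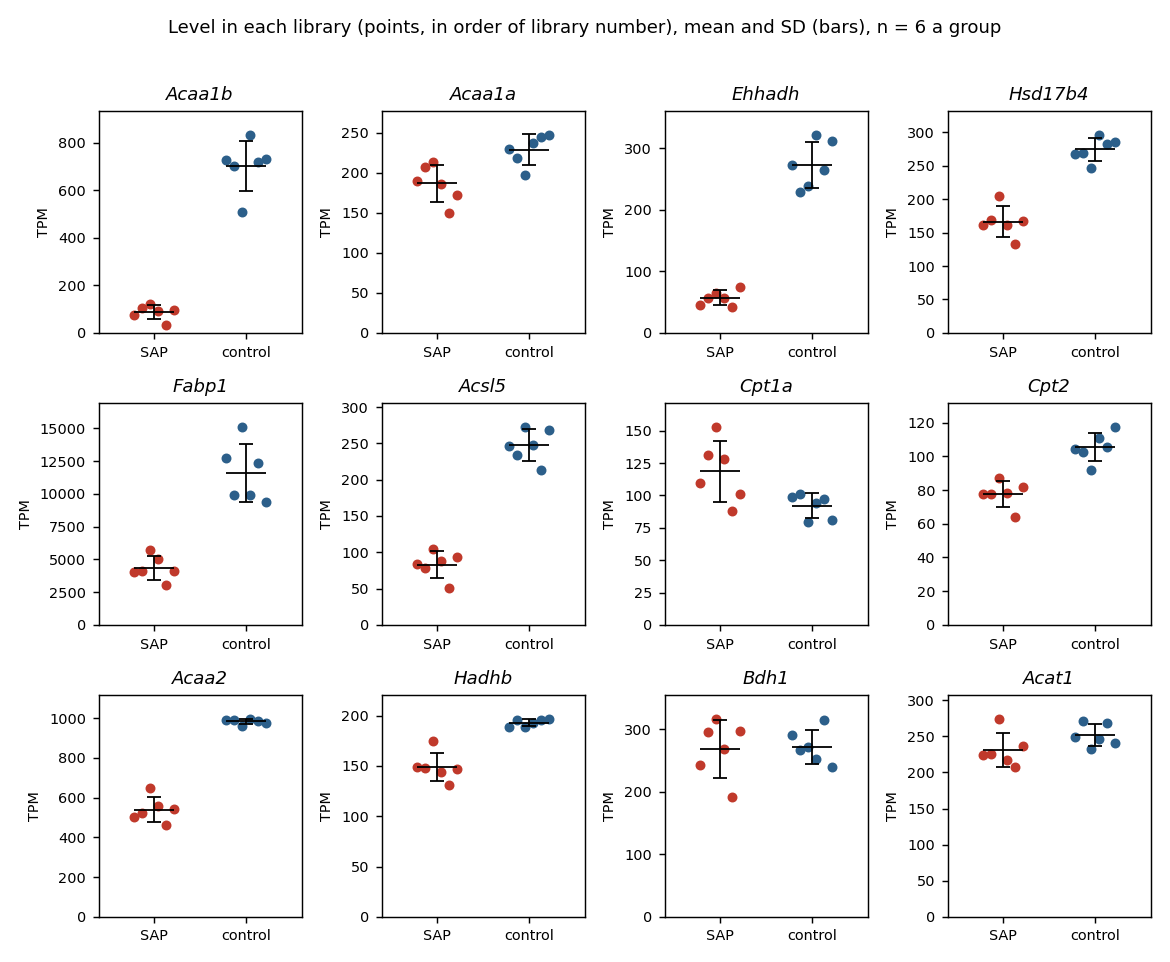
TPM of 12 of the genes in each liver (points, SAP left and control right), with the mean and SD over 6 livers of each group. Fabp1, Acaa1b and Ehhadh show groups far apart, while Cpt1a overlaps.

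The acyl-CoA dehydrogenases take the first step of each turn of the spiral, and 6 of the 7 fell, with a summed level of 1018 ± 87.1 TPM in SAP and 1358 ± 77.5 TPM in control. The sizes of the falls were unequal. Acadm, the medium-chain enzyme, was at 159, 200.1 and 239 TPM in SAP livers, against 292, 371 and 409 TPM in control livers (log2 change -0.85 ± 0.10, adjusted p = 1.87e-05). Acads, the short-chain enzyme, was at 97.4, 118 and 140.0 TPM in SAP and 158, 179 and 184 TPM in control (log2 change -0.58 ± 0.08, adjusted p = 4.85e-05). Neither gene's groups overlapped. Acadvl, the very-long-chain enzyme, averaged 339 ± 21.2 TPM in SAP and 382 ± 17.6 TPM in control, with overlap and a log2 change of -0.17 ± 0.06 (adjusted p = 0.0254). That call was lost without SAP 11, SAP 13, control 7 or control 8 and under TMM-like scaling (adjusted p = 0.139). The sign turned round, to 0.16 under quantile normalization and 0.24 outside the acute-phase list, both past the threshold.

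Acadl, the long-chain enzyme, did not pass the test, at 190.0, 203 and 221 TPM in SAP and 196, 206 and 212 TPM in control (log2 change -0.01 ± 0.05, adjusted p = 0.843). Its log2 change was 0.36 under quantile normalization and 0.40 outside the acute-phase list, both past the threshold. Acadl ranked 8 among the 40 members by mean level in SAP and 22 in control. The other 3 dehydrogenases fell with no overlap. Acadsb, which acts on short branched chains from isoleucine, averaged 26.6 ± 5.17 TPM in SAP and 48.4 ± 3.65 TPM in control, Acad10 21.8 ± 4.11 and 39.0 ± 2.92 TPM, and Acad11 110.1 ± 14.0 and 149 ± 5.57 TPM. Their log2 changes were -0.86 ± 0.12, -0.84 ± 0.12 and -0.45 ± 0.08 (adjusted p = 5.70e-05, 0.000105 and 0.000538). The call of Acad11 was lost under quantile normalization (log2 change -0.12) and outside the acute-phase list (-0.034).

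All 5 genes of the later steps of the mitochondrial spiral fell with no overlap between groups, though Hadhb reached 0.037 on the log2 scale outside the acute-phase list. Their sum was 1176 ± 149 TPM in SAP and 1974 ± 26.8 TPM in control. Acaa2, the mitochondrial ketoacyl-CoA thiolase, was at 462, 532 and 647 TPM in SAP livers, against 962, 988 and 996 TPM in control livers, where it varied very little (log2 change -0.88 ± 0.07, adjusted p = 8.50e-07). Echs1, the short-chain enoyl-CoA hydratase, was at 125, 163 and 179 TPM in SAP and 267, 277 and 279 TPM in control (log2 change -0.82 ± 0.08, adjusted p = 3.38e-06). Hadh, the short-chain hydroxyacyl-CoA dehydrogenase, was at 124, 190.2 and 249 TPM in SAP and 302, 317 and 328 TPM in control (log2 change -0.79 ± 0.12, adjusted p = 0.00019).

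The subunits of the mitochondrial trifunctional protein, which serves long chains, had smaller log2 changes. Hadha averaged 145 ± 18.1 TPM in SAP and 206 ± 8.45 TPM in control and Hadhb 149 ± 14.3 and 193 ± 3.49 TPM, with log2 changes of -0.51 ± 0.08 and -0.38 ± 0.06 (adjusted p = 0.000115 and 0.000329). Both calls were lost under quantile normalization and outside the acute-phase list. The Hadha to Hadhb ratio was 0.877, 0.992 and 1.02 in SAP and 1.005, 1.08 and 1.09 in control, and the groups overlapped.

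The auxiliary enzymes, which prepare unsaturated chains for the spiral, summed to 457 ± 41.3 TPM in SAP and 518 ± 18.1 TPM in control. Eci1, an enoyl-CoA isomerase, averaged 185 ± 15.5 TPM in SAP and 224 ± 10.5 TPM in control (log2 change -0.28 ± 0.06, adjusted p = 0.00285), and Decr1, the mitochondrial dienoyl-CoA reductase, 72.6 ± 7.67 and 86.1 ± 4.40 TPM (log2 change -0.25 ± 0.07, adjusted p = 0.0117). Both falls depended on the scale: under quantile normalization the log2 changes were 0.11 and 0.01, and outside the acute-phase list 0.13 and 0.16. Of these, only the 0.16 of Decr1 was past the threshold. Decr1 also lost its call under TMM-like scaling (adjusted p = 0.0501) and with the Xist split as a term. Neither was called in the libraries high in Xist alone. Eci2, a second isomerase, averaged 199 ± 22.1 TPM in SAP and 207 ± 16.8 TPM in control and did not pass the test (log2 change -0.06 ± 0.08, adjusted p = 0.596), with log2 changes of 0.31 and 0.35 on those same scales, both past the threshold.

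The electron transfer flavoprotein carries electrons from the acyl-CoA dehydrogenases to the respiratory chain, and all 3 of its genes fell with no overlap. Etfa, the alpha subunit, was at 138, 176 and 199 TPM in SAP livers, against 324, 332 and 354 TPM in control livers (log2 change -0.95 ± 0.08, adjusted p = 7.54e-07). Etfb, the beta subunit and the second most abundant member in both groups, was at 616, 649.9 and 712 TPM in SAP and 962, 1015 and 1103 TPM in control (log2 change -0.64 ± 0.06, adjusted p = 1.78e-06). The subunits fell unequally: the Etfa to Etfb ratio was 0.225, 0.273 and 0.281 in SAP and 0.299, 0.332 and 0.352 in control, with no overlap. Etfdh, which passes the electrons to ubiquinone, averaged 127 ± 14.4 TPM in SAP and 172 ± 11.4 TPM in control (log2 change -0.44 ± 0.08, adjusted p = 0.000482), a call lost under quantile normalization and outside the acute-phase list.

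Peroxisomal genes fell in 7 of 8 cases as deposited, Acaa1a being the 1 of these whose sign turned, to 0.09 under quantile normalization and 0.11 outside the acute-phase list. Their sum was 811 ± 142 TPM in SAP and 1871 ± 170 TPM in control. Acaa1b, a peroxisomal ketoacyl-CoA thiolase, had the largest fall of the 40 members, at 32.9, 94.9 and 121 TPM in SAP livers, against 509.9, 722 and 833 TPM in control livers. The control mean was 8.03 times the SAP mean (log2 change -3.08 ± 0.25, adjusted p = 8.42e-07), and by mean level the gene ranked 26 among the members in SAP and 4 in control. Its neighbour Acaa1a, the other thiolase copy, was at 150.3, 188 and 214 TPM in SAP and 197, 234 and 247 TPM in control, with overlap (log2 change -0.30 ± 0.09, adjusted p = 0.0140), and was not called with the Xist split as a term or in the libraries high in Xist alone.

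The thiolase copies therefore swapped order. The ratio of Acaa1b to Acaa1a was 0.219, 0.505 and 0.567 in SAP and 2.59, 3.05 and 3.50 in control, so that Acaa1b was the lesser copy in every SAP liver and the greater in every control liver. The reference transcripts of the pair are 1762 bases (Acaa1a) and 1689 bases (Acaa1b) long and 91.9% identical over 1638 aligned bases. Of the 50-base windows of Acaa1b, 35.5% also occur in Acaa1a, and neither the labels nor the table say how reads shared by both were assigned, so the split between the copies is uncertain. Their sum, which such reads cannot move between copies, was 183 to 335 TPM in SAP and 707 to 1071 TPM in control.

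Ehhadh, the peroxisomal bifunctional enzyme that PPAR-alpha activators induce in rodents, was at 42.1, 56.4 and 74.7 TPM in SAP livers, against 229, 268 and 322 TPM in control livers. The control mean was 4.81 times the SAP mean (log2 change -2.26 ± 0.14, adjusted p = 5.80e-08). Hsd17b4, the second bifunctional enzyme, which serves branched chains and bile acid precursors, had a smaller log2 change, at 133, 164 and 205 TPM in SAP and 247, 276 and 296 TPM in control (log2 change -0.73 ± 0.09, adjusted p = 2.00e-05). The Ehhadh to Hsd17b4 ratio was 0.282, 0.327 and 0.447 in SAP and 0.847, 0.990 and 1.09 in control. Of 10 such ratios of related genes, 4 did not overlap between groups. How often the ratios of other gene pairs do so was not examined, so the count cannot be called unusual.

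**Figure D4:**
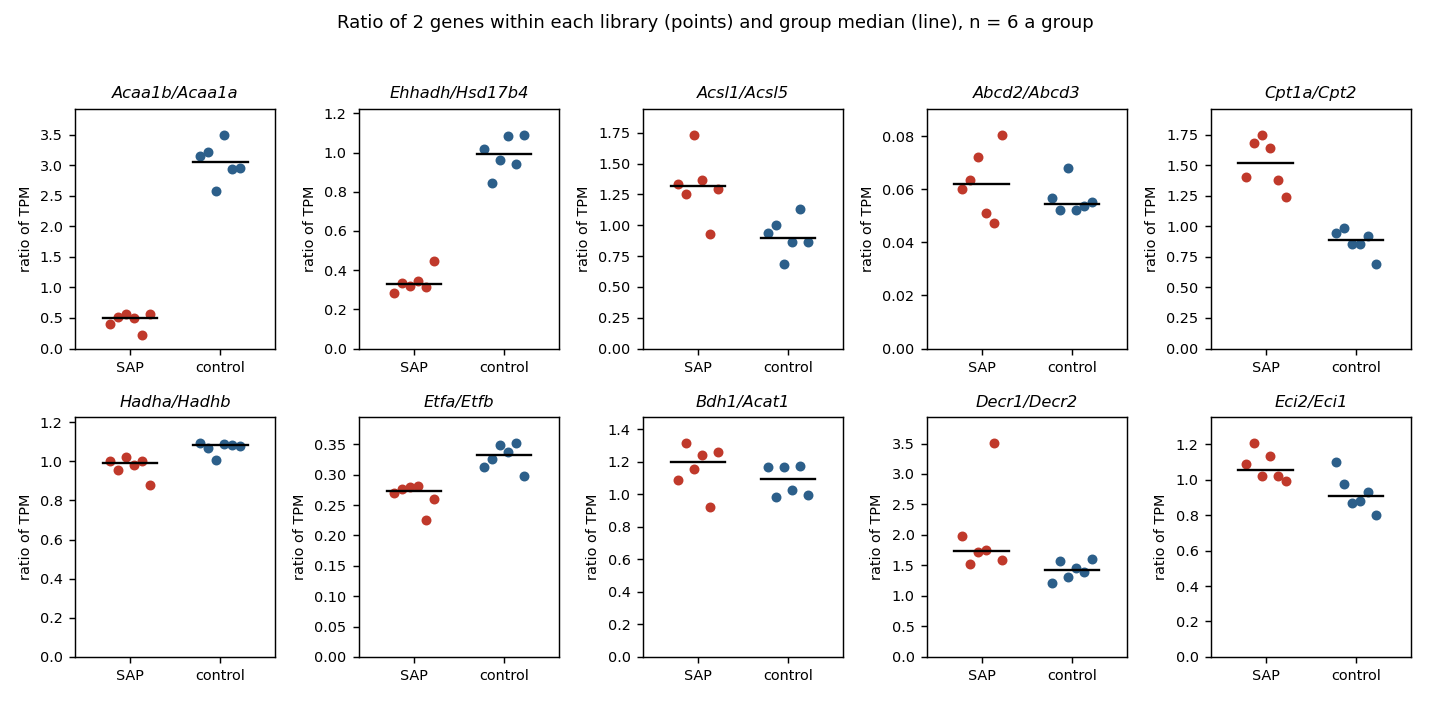
Ratio of TPM within each liver for 10 pairs of related genes (linear axis from 0, points are livers, lines are group medians, SAP left and control right). The ratios Acaa1b/Acaa1a, Ehhadh/Hsd17b4 and Etfa/Etfb are lower, and Cpt1a/Cpt2 higher, in every SAP liver than in any control liver, and the other 6 overlap.

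Abcd3, a transporter that brings long and branched acyl-CoA into peroxisomes, was at 51.8, 87.1 and 108 TPM in SAP livers and 162, 175 and 187 TPM in control livers (log2 change -1.09 ± 0.13, adjusted p = 2.51e-05). Abcd2, a transporter of very-long-chain acyl-CoA and the least abundant member in both groups, averaged 5.37 ± 1.91 TPM in SAP and 9.94 ± 1.32 TPM in control (log2 change -0.83 ± 0.19, adjusted p = 0.00273). Decr2, the peroxisomal dienoyl-CoA reductase, averaged 39.2 ± 11.0 TPM in SAP and 60.9 ± 5.69 TPM in control (log2 change -0.68 ± 0.18, adjusted p = 0.00827), and its call was lost outside the acute-phase list (-0.27, adjusted p = 0.130). None of these 3 genes had overlapping groups. Crot, which makes carnitine esters of peroxisomal products for export, did not pass the test, at 119, 188 and 245 TPM in SAP and 117, 141 and 183 TPM in control (log2 change 0.33 ± 0.17, adjusted p = 0.134). It was called higher under quantile normalization (log2 change 0.68), outside the acute-phase list (0.74), with the Xist split as a term (0.55), in the libraries high in Xist alone (0.61) and without SAP 14 (0.45). Crot ranked 13 among the members by level in SAP and 28 in control.

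Neither ketogenic gene among the members passed the test, and their sum was 499.6 ± 65.2 TPM in SAP and 524 ± 37.3 TPM in control. Bdh1, which interconverts acetoacetate and beta-hydroxybutyrate, was at 192, 282 and 317 TPM in SAP livers and 239, 269 and 315 TPM in control livers (log2 change -0.03 ± 0.11, adjusted p = 0.842). Acat1, the mitochondrial acetoacetyl-CoA thiolase, was at 208, 225 and 274 TPM in SAP and 233, 248 and 271 TPM in control (log2 change -0.13 ± 0.07, adjusted p = 0.166). The groups overlapped for both, and without SAP 12 Acat1 was called lower (log2 change -0.18). Their log2 changes were above 0 under quantile normalization (0.34 and 0.26) and outside the acute-phase list (0.38 and 0.29), and past the threshold there.

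Of the 7 other ketone body genes, 4 fell, 1 did not pass the test and 2 rose, namely the monocarboxylate transporters Slc16a1 and Slc16a6, named after their values were seen (log2 changes 0.26 and 0.41). The call of Slc16a6 did not hold without SAP 11, control 3 or control 5. The steepest fall was that of Bdh2, a cytosolic dehydrogenase, which averaged 2.06 ± 1.48 TPM in SAP and 11.8 ± 1.49 TPM in control (log2 change -2.18 ± 0.24, adjusted p = 9.84e-06). Aacs, which uses acetoacetate for lipid synthesis, averaged 9.78 ± 2.71 TPM in SAP and 29.1 ± 6.00 TPM in control.

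Other genes around the pathway, 85 in all and 78 abundant enough to test, gave 51 lower, 9 higher and 18 not past the threshold, with a median log2 change of -0.57. The untested genes reached at most 1.39 TPM. Of 15 genes listed as other mitochondrial, a list that also held genes of other pathways and compartments, 13 fell and none rose. The 3 with the smallest adjusted p were Pcca, a propionyl-CoA carboxylase subunit (25.3 ± 3.95 TPM in SAP and 57.0 ± 3.88 TPM in control), Hsd17b10, a short-chain hydroxyacyl-CoA dehydrogenase (130.2 ± 24.1 and 351 ± 37.4 TPM), and Echdc3 (33.6 ± 6.40 and 85.3 ± 5.18 TPM). Of 13 other peroxisomal genes 11 fell and none rose. Among these, Pecr, an enoyl-CoA reductase, averaged 179.9 ± 30.8 TPM in SAP and 376 ± 20.2 TPM in control, and Hacl1, the alpha-oxidation lyase, 145 ± 41.7 and 319.8 ± 55.9 TPM.

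Uptake and activation genes outside the members were mixed, with 4 lower, 2 higher and 3 not past the threshold of 9 tested. Slc27a5, the bile acid and very-long-chain acyl-CoA synthetase, averaged 152 ± 21.0 TPM in SAP and 340.0 ± 32.8 TPM in control (log2 change -1.16, adjusted p = 1.11e-06), Dbi, the acyl-CoA-binding protein, 1324 ± 99.3 and 2001 ± 151 TPM, and Acsf2 57.0 ± 8.90 and 98.3 ± 8.13 TPM. The higher genes, named after their values were seen, were the fatty acid-binding proteins Fabp2 and Fabp5 (log2 changes 0.75 and 1.90). In carnitine synthesis and transport, 3 of 4 tested genes fell. These were the synthetic enzymes Aldh9a1, Bbox1 and Tmlhe (log2 changes -0.67, -1.02 and -0.30), of which Tmlhe turned to 0.07 outside the acute-phase list. The carnitine transporter Slc22a5, also named after its value was seen, rose by 0.38.

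Regulators were lower or did not pass the test as deposited, 7 and 8 of 15 tested, against 25.0% of all genes lower. Outside the acute-phase list, where 55.4% of all genes were higher, some that had not passed were called higher. Among these were Hnf4a and Creb3l3, named after their values were seen (log2 changes 0.60 and 0.51). Both were also called higher under quantile normalization (0.56 and 0.48). Ppara, the gene of PPAR-alpha itself, was at 20.4, 45.0 and 64.9 TPM in SAP livers and 29.6, 42.1 and 54.5 TPM in control livers, with wide overlap (log2 change 0.00 ± 0.23, adjusted p = 0.992). Its coactivator Ppargc1a was lower with groups apart, at 0.72, 1.25 and 1.65 TPM in SAP and 2.29, 4.08 and 5.37 TPM in control (log2 change -1.13 ± 0.17, adjusted p = 0.000127). The coactivator Ppargc1b averaged 0.29 ± 0.321 TPM in SAP and 1.40 ± 0.161 TPM in control (log2 change -0.92). With at most 0.93 TPM in any SAP liver, Ppargc1b entered the test only through the control livers. Its place among the 7 lower regulators is therefore only a description. Lpin1, a phosphatidate phosphatase that also acts as a coactivator, was at 5.93, 8.95 and 9.91 TPM in SAP and 35.5, 82.1 and 103 TPM in control (log2 change -2.97 ± 0.22, adjusted p = 3.08e-07). Acacb, whose malonyl-CoA inhibits the Cpt1a enzyme, averaged 7.31 ± 2.28 TPM in SAP and 29.2 ± 7.96 TPM in control (log2 change -1.86, adjusted p = 1.50e-05).

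Among 15 other tested targets of PPAR-alpha, 9 fell, 4 rose and 2 did not pass the test. Acot1, a cytosolic acyl-CoA thioesterase, averaged 2.54 ± 1.10 TPM in SAP and 58.2 ± 8.99 TPM in control (log2 change -4.11 ± 0.19, adjusted p = 3.84e-09). The omega-hydroxylases Cyp4a10 and Cyp4a14, which start the making of dicarboxylic acids, averaged 299.8 ± 78.2 and 248 ± 73.0 TPM in SAP, against 1234 ± 126 and 1250.2 ± 189.7 TPM in control (log2 changes -2.07 and -2.37). These genes belong to families of close copies, so their levels share the uncertainty given for the thiolase pair. The 4 that rose, named after their values were seen, were the lipid droplet genes Plin2 and Cidec, Vnn1 and the hormone Fgf21 (log2 changes 0.32, 1.65, 1.69 and 0.81). The call of Plin2 did not hold without SAP 10, SAP 11, control 3, control 5 or control 8, and that of Fgf21 without SAP 10, SAP 14, control 3, control 5 or control 7.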

How the data were processed

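Liver RNA of 6 SAP and 6 control samples was sequenced, and the authors deposited 1 table of 55487 gene rows by 12 libraries. The deposited values are taken as TPM because each library sums to 993412 to 995793. The submitters' processing notes name edgeR, with no version or role. Aligner, genome build and annotation: not given in the sources used here. Since depth cannot be read from TPM, the precision set by sequencing depth is unknown.

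Where a symbol recurred (120 rows dropped), the most abundant row by median stood for it. The 11335 genes that reached 1 TPM in 6 or more libraries were tested on log2(TPM + 1) with limma 3.58.1 (R 4.3.3, moderated test with an intensity trend), SAP minus control, two-sided, Benjamini-Hochberg threshold 0.05 over all of them, and the fit was tested on simulated data. The simulation gave both groups the control spread, so it did not cover the wider spread or the acute-phase share of SAP livers. Changes on the log2(TPM + 1) scale understate those of low genes. A gene below 1 TPM throughout 1 group could enter the test through the other group alone. Ppargc1b, Eci3 and Cyp4a31, counted as lower, entered only through control livers. The markers Itgam and Retnlg, counted as higher, entered only through SAP livers. Alternatives were TMM-like and quantile scaling, rescaling outside an acute-phase list, other filters, a pseudocount of 0.1, the split by Xist at 30 TPM as a term or restriction, and leaving out each library in turn. No column was left out. The members and gene lists were chosen with earlier results of these data known. Genes outside the members were named if among the 3 smallest adjusted p-values of their list, together with Ppara and Ppargc1a. Some genes the rule covers are not reported here. Promoters were read from RefSeq (GRCm38.p6) and transcripts of the thiolase pair aligned with Biopython 1.88. No protein sequences are shown.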

Additional observations from a re-analysis of the deposited data

Results flagged for a closer look

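Among 100 sets of 6 libraries examined for members and their ratios, 9 had 1 library standing apart from the other 5 by the Dixon criterion, where chance gives about 1 in 20. Cd36 was highest in SAP 11 at 45.16 TPM, with the next SAP library at 36.55 TPM. Acadvl was highest in SAP 12 at 379.39 TPM, with the next SAP library at 343.73 TPM. Acad10 was lowest in SAP 14 at 13.8 TPM, with the next at 22.12 TPM, and the ratio of Decr1 to Decr2 was highest there at 3.50643, with the next at 1.98988. The other 5 were in control 5, a library low in Xist and Malat1. It was the lowest control for Acads at 158.01 TPM, for Acadvl at 348.37 TPM and for Hadha at 189.7 TPM. It also had the lowest control ratio of Hadha to Hadhb at 1.00455 and the highest control ratio of Abcd2 to Abcd3 at 0.0680452.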

How the results depend on the processing

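No paired analysis was possible because the SAP and control samples share no replicate number. Of 2091 recomputed values, 1966 were labelled as unchanged. For single genes this meant the same side of the threshold, and a change of sign counted only where either fit passed it. For counts it meant staying within a fixed factor, and for medians, shares and ratios within the SD between libraries. Of the 32 called members, 18 kept both their direction and their call under all 25 alternatives. The share of all called genes that did so was not counted. Leaving out each library in turn gave 29 to 32 lower members and 0 to 2 higher ones. Of the 11335 genes tested, the same fits called 2537 to 3062 lower and 1956 to 2452 higher. The count of higher members was 0 with no filter, where 2225 of 25138 genes were higher. It was 3 with the Xist split as a term, with or without TMM-like scaling (the combination was chosen after seeing the data), against 2434 and 2324 of all genes. With the high-Xist libraries alone it was also 3, where 1829 of all genes were lower and 2041 higher. Quantile normalization gave 8 higher members and a median of -0.20. Rescaling outside the acute-phase list gave 18 lower and 11 higher members, a median of -0.13, a member share of 1.43% of the remaining TPM in SAP, and 1214 lower and 6280 higher genes in all. Signs turned under quantile normalization and outside that list for Acadl (0.36 and 0.40), Acadvl (0.16 and 0.24), Eci1 (0.11 and 0.13), Eci2 (0.31 and 0.35), Decr1 (0.013 and 0.16), Acaa1a (0.094 and 0.11), Bdh1 (0.34 and 0.38) and Acat1 (0.26 and 0.29), and outside it alone for Acsm3 (0.13), Hadhb (0.037) and Tmlhe (0.072). These signs were followed only for the members and the other genes named by the rule. Some further genes around the pathway that were called lower also turned under that rescaling. By construction that rescaling raises SAP values, since the list holds more of the TPM in SAP. For the other settings the cause was not tested.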

Other observations

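The members varied more among SAP livers than among control livers, with a median coefficient of variation of 13.4% in SAP and 7.51% in control, against 18.0% and 12.6% over all genes tested. As a share of all TPM the 40 genes made up 1.04% ± 0.163 in SAP and 2.12% ± 0.199 in control (SD, n = 6 each). With acute-phase genes taken out of the total, the share was 1.43% ± 0.150 in SAP and 2.20% ± 0.208 in control.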
